A study of Brassica rapa with 12 samples.

Results

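In Chinese cabbage (Brassica rapa), 224 genes were already read at 22 °C and then surged after 1 h at 37 °C, in wild-type plants and in plants edited in GIGANTEA alike. Members were selected on these measured values: they had at least 5 CPM (counts per 1000000 gene counts, scaled by the trimmed mean of M-values, TMM) in each of the 6 libraries at 22 °C. Their mean CPM at 37 °C was also at least 8 times that at 22 °C in both genotypes. The 224 genes were 0.777% of the 28846 genes that passed the filter on low counts. They made up 26.7% of the 838 genes raised at least 8-fold in both genotypes and 1.60% of the 14037 genes with at least 5 CPM in each library at 22 °C. Because these limits chose the members, their levels at 22 °C and their heat folds are a description here and carry no test. CPM is not divided by gene length, so an order of members by CPM is an order of reads, not of transcripts.

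Messenger RNA of whole plants was sequenced in 12 libraries, 3 for each of 4 groups. Wild-type plants of the cultivar Chiifu (listed as early flowering) and gi plants, which are GIGANTEA-edited Chinese cabbage listed with the same cultivar and as late flowering, were grown in 1/2MS medium for 2 weeks. They were either left at 22 °C without heat or kept at 37 °C for 1 h. The labels name neither the edited allele nor the number of gi lines, and leave unsaid how many plants went into a library and if replicates came from separate cultures. P-values therefore reflect the scatter among these particular libraries, and that scatter may be technical.

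Plants meet sudden heat with heat shock factors, transcription factors that switch on genes for chaperones, the heat shock proteins that keep other proteins folded or return them to a folded state. Some chaperone genes are silent in unstressed tissue, while others also serve in normal growth and so have a basal level from which heat raises them. GIGANTEA is a plant protein that acts in the circadian clock and in the timing of flowering by day length. None of the gene IDs matched the reference gene table at hand, so no member can be given a symbol or a role, and the members are ordered here by how they behaved rather than by function. The chromosome given for a gene is the one its ID names. Many genes of this species have similar copies left from an ancient genome multiplication, and the counting may have divided or dropped reads that fit several of them.

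Libraries held between 36778289 and 57777477 gene counts. The TMM factors, by which library sizes are multiplied, were 1.20 to 1.52 at 22 °C and 0.665 to 0.910 at 37 °C, so the scaling itself raises CPM at 37 °C over that at 22 °C. When CPM was taken from total counts alone, 143 genes met the same limits, 123 of them among the 224. At 37 °C the gi libraries were uneven: replicate 1 had a factor of 0.673, against 0.864 and 0.910 in the others. Among the libraries at 22 °C, Chiifu replicate 1 stood farthest from the other replicates of its group, with a chi-square of counts per degree of freedom of 353 and 318 against 68.8 between those. In whole plants, fewer cells of a type and less RNA per cell cannot be told apart.

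Together the members went from a minor to a major part of the reads. They held 1.25% ± 0.0532 (SD, n = 3) of the gene counts in Chiifu at 22 °C and 21.0% ± 0.745 at 37 °C. In gi the shares were 1.17% ± 0.0569 and 19.6% ± 1.67. By library, the share at 37 °C was 21.1%, 21.7% and 20.2% in Chiifu and 21.5%, 19.0% and 18.3% in gi. The gi library with 21.5%, replicate 1, lay inside the range of Chiifu, and the other gi libraries lay below it. Each share is a sum of raw counts over all gene counts, while TMM bears on which genes are members.

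The members rose to the top of the read counts. Of the 100 genes with the most CPM in a library, 2 were members in each of the 6 libraries at 22 °C. At 37 °C, 39 to 44 of the 100 were members in Chiifu and 41 to 44 in gi. Of the 1000 genes with the most CPM, members made up 10 to 18 per library at 22 °C and 163 to 186 at 37 °C.

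**Figure D1:**
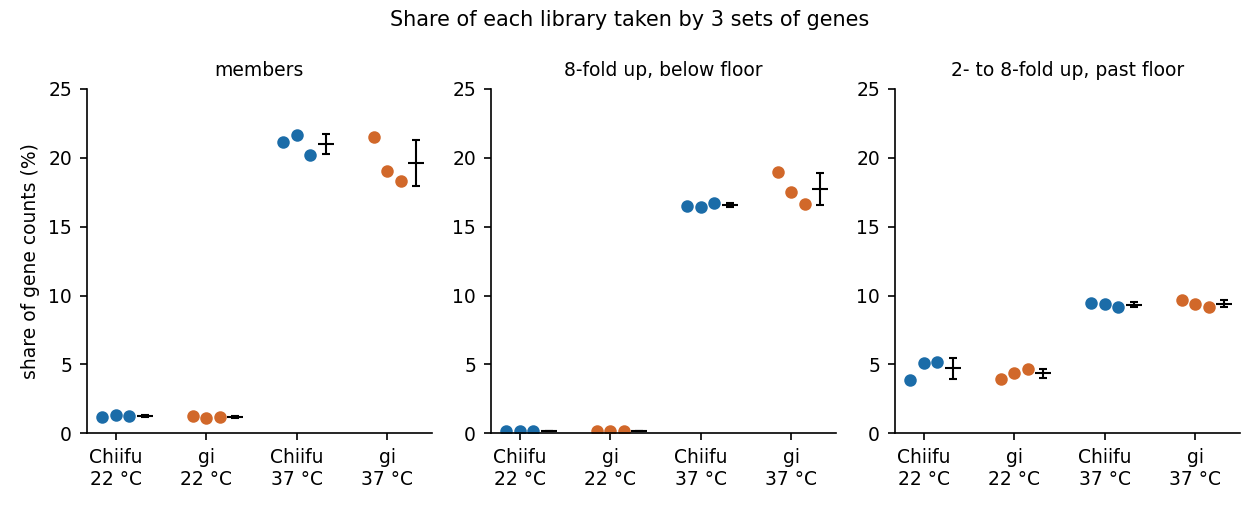
Share of all gene counts (%) held in each library by the 224 members (left), by the 614 genes raised at least 8-fold in both genotypes that missed the floor of 5 CPM at 22 °C (middle) and by the 958 genes past that floor raised 2-fold to 8-fold in both (right); points are libraries and bars the mean ± SD of 3. The members went from 1.25% to 21.0% in Chiifu and from 1.17% to 19.6% in gi.

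Beside the members stood 2 sets defined with the same limits. The 614 genes that surged from below the floor held only 0.154% ± 0.0234 of the gene counts in Chiifu at 22 °C, yet 16.6% ± 0.150 at 37 °C, and in gi 0.142% ± 0.00677 and 17.7% ± 1.15. The 958 genes past the floor that rose 2-fold to 8-fold in both genotypes went from 4.72% ± 0.762 to 9.34% ± 0.169 in Chiifu and from 4.34% ± 0.347 to 9.40% ± 0.265 in gi. At 37 °C the 224 members thus held more of the reads than either of these larger sets in Chiifu. In gi replicate 1 at 37 °C the members held 21.5% and the 614 genes 18.9%, in replicate 2 they held 19.0% and 17.5%, and in replicate 3 they held 18.3% and 16.7%. The lowest count of any member in a library at 22 °C was 283, so counting error plays little part in the members' base levels.

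**Figure D2:**
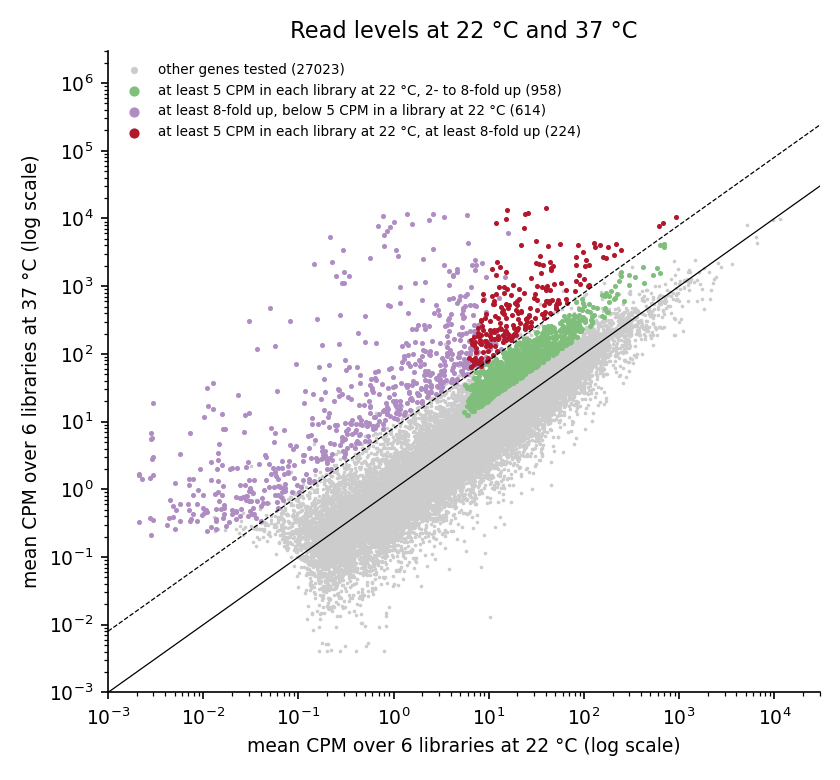
Mean CPM over the 6 libraries at 37 °C against that at 22 °C (both axes on a log scale) for genes with reads at both temperatures; the solid line marks equal levels and the dashed line an 8-fold rise. The 224 members (red) span 6.23 to 930.5 CPM at 22 °C and 63.1 to 14270.2 CPM at 37 °C.

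Most members rose about 8- to 32-fold. Mean CPM over the 6 libraries at 22 °C had a median of 17.36 over members, with the middle 50% of members between 11.1 and 38.3. That median was 7.73 over all genes tested and 23.1 over the genes past the floor. At 37 °C the members' median was 400.0 and their middle 50% lay between 189 and 986. The median fold was 18.3 in Chiifu and 16.3 in gi. By the smaller of a member's 2 folds, 115 members rose 8- to 16-fold, 64 rose 16- to 32-fold, 24 rose 32- to 64-fold, 9 rose 64- to 128-fold and 12 rose at least 128-fold. Spearman's rho between log2 mean CPM at 22 °C and the log2 of the smaller fold was -0.04 over the 224 members. Nothing is read from it, since both measures were cut off by the limits, the level at 22 °C enters both, and the members share libraries.

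For nearly every member, heated and unheated libraries did not overlap. The limits on the means make this likely beforehand. The share of all genes with such separation was not computed, so this is only a description. In both genotypes, each library at 37 °C lay above each library at 22 °C for 223 of the 224. For 146 members the lowest library at 37 °C had at least 8 times the CPM of the highest library at 22 °C in both genotypes.

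Reads were concentrated in a few members. The 18 members with the highest mean CPM at 37 °C supplied 50% or more of the members' summed CPM there. The 10 highest took 8.20% ± 0.268 of all gene counts in Chiifu at 37 °C and 7.37% ± 0.619 in gi, against 0.308% ± 0.0143 and 0.312% ± 0.0221 at 22 °C.

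BraA06g020960.3.5C, on chromosome A06, had the highest mean CPM of all 28846 genes at 37 °C, where at 22 °C it ranked 3980. Its CPM at 22 °C was 14.0, 42.7 and 39.9 in the 3 Chiifu libraries and 51.1, 41.4 and 53.0 in the 3 gi libraries. After heat it was 17030.3, 14171 and 16027 in Chiifu and 16052, 11636 and 10705 in gi. The level of Chiifu replicate 1 at 22 °C lay well below the other 5 libraries. The fold was 489 in Chiifu and 264 in gi.

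BraA03g035810.3.5C, on chromosome A03, ranked second at 37 °C and had the largest smaller fold of all members. At 22 °C it had 14.2, 7.02 and 29.9 CPM in Chiifu and 9.14, 17.0 and 15.7 in gi. At 37 °C it had 15774, 13754 and 14749.9 CPM in Chiifu and 14279, 11480.0 and 9177 in gi. These are rises of 866-fold and 835-fold from a base that was uneven among the Chiifu libraries. BraA05g001540.3.5C came next by its smaller fold, with 772-fold in Chiifu and 668-fold in gi. Its base lay between 8.59 and 15.2 CPM over the 6 libraries at 22 °C. Its heated level was uneven: 9555, 12354 and 6889 CPM in Chiifu and 13459, 2481 and 6986 in gi, with gi replicate 2 lowest and gi replicate 1 highest of the 6.

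A different course was seen in the members with the highest mean CPM at 22 °C. BraA05g006260.3.5C had 1181, 969 and 724 CPM in Chiifu and 1116, 886 and 707 in gi at 22 °C, rank 53 of all genes. At 37 °C it had 13042, 9788 and 14422 CPM in Chiifu and 11251, 7983 and 7316 in gi, rank 9. Its folds were 12.96 and 9.80. BraA02g043270.3.5C had 293, 877 and 805 CPM in Chiifu and 483, 839 and 733 in gi at 22 °C, so that replicate 1 was the lowest in both genotypes. After heat it had 10994, 8742 and 9066 CPM in Chiifu and 10284, 6464 and 5897 in gi, rises of 14.6-fold and 11.02-fold.

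**Figure D3:**
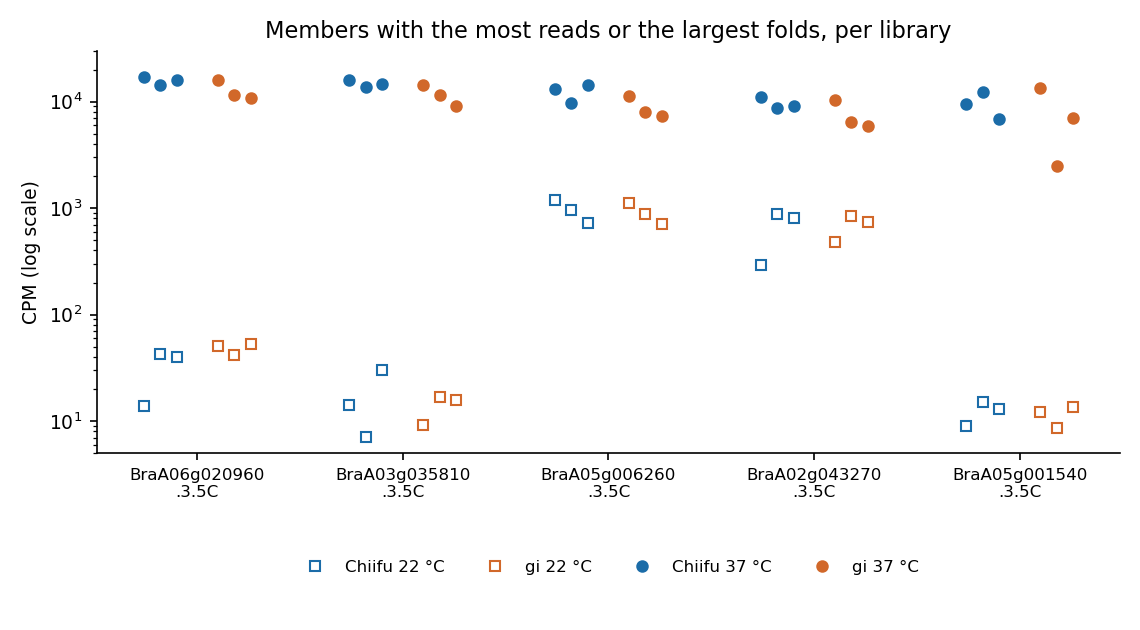
CPM (log scale) of 5 members in each of the 12 libraries, with open squares for 22 °C, filled circles for 37 °C, blue for Chiifu and orange for gi. BraA06g020960.3.5C and BraA03g035810.3.5C reached the highest levels from a base of 7.02 to 53.0 CPM, whereas BraA05g006260.3.5C started at 707 to 1181 CPM.

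The 12 strongest risers and the 17 most read members at 22 °C shared no gene. Groups this small can do so without any link between level and fold, so nothing is read from it. Their shares of the summed CPM follow in part from the sorting, by fold or by level at 22 °C, that made them. The 12 members that rose at least 128-fold began at 10.7 to 40.4 CPM, reached 1806 to 14270.2 CPM and lay on 7 chromosomes. They held 2.65% of the members' summed CPM at 22 °C and 33.8% at 37 °C. The 17 members with a mean of at least 100 CPM at 22 °C rose 9.69- to 33.2-fold in Chiifu and 8.48- to 34.1-fold in gi, and their part of the members' summed CPM went from 47.0% to 24.96%. At the other end, the 46 members under 10 CPM at 22 °C rose with a median of 17.5-fold in Chiifu and 15.4-fold in gi and reached 63.1 to 775 CPM.

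The limits of the set cut through a continuous spread. At the fold limit, BraA09g019650.3.5C (8.01-fold in Chiifu, 8.22-fold in gi) and BraA10g026860.3.5C (8.19 and 8.06) were members. BraA07g033480.3.5C (7.995 and 10.7) and BraA09g050390.3.5C (7.95 and 10.1) were just outside. At the floor, BraA03g059340.3.5C and BraA05g005150.3.5C were members with a lowest CPM at 22 °C of 5.005 and 5.02. BraA02g000220.3.5C and BraA03g008390.3.5C missed it with 4.98 and 4.97 and rose at least 12.4-fold and 25.1-fold in both genotypes.

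Replicates of the members varied most in heated gi. The median coefficient of variation over members was 21.1% in Chiifu and 15.2% in gi at 22 °C, and 12.8% in Chiifu and 26.8% in gi at 37 °C. Over the 14037 genes past the floor these medians were 19.8%, 13.5%, 15.1% and 13.4%. Over the 958 genes past the floor that rose 2-fold to 8-fold they were 19.9%, 14.3%, 15.1% and 22.0%, also highest in heated gi. Over the 614 genes that surged from below the floor they were 56.3%, 46.1%, 27.4% and 29.5%. In gi at 37 °C, replicate 1 had the highest CPM of the 3 libraries for 212 of the 224 members (94.6%), against 46.2% of all genes. Scaled by total counts it was the highest for 177 members. The share of all genes was not computed for that scaling, so nothing is read from the 177. With TMM the median CPM of the 958 genes in heated gi was 79.0 in replicate 1 and 57.1 and 53.1 in the others. That of the 614 genes was 28.7 in replicate 1, against 21.4 and 18.6. How far the low TMM factor of that library bears on this was not tested.

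**Figure D4:**
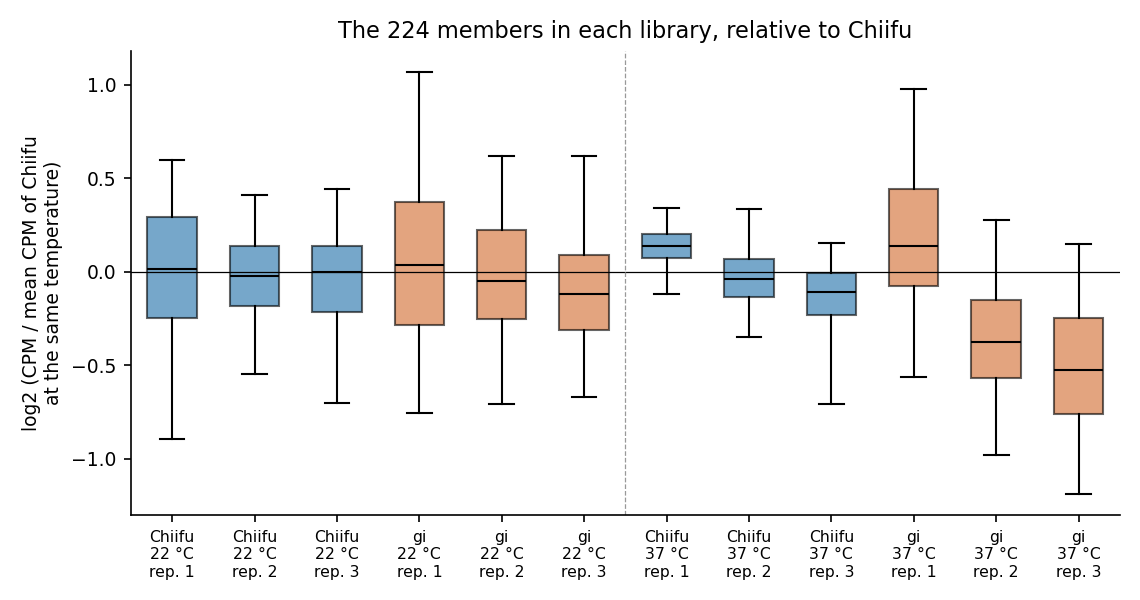
Distribution over the 224 members of the log2 ratio of CPM in each library to the mean CPM of the 3 Chiifu libraries at the same temperature (box: middle 50%, line: median, whiskers: 5th to 95th percentile). The medians were 0.14 for gi replicate 1 at 37 °C and -0.37 and -0.53 for replicates 2 and 3.

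Single libraries also departed for single members. BraA07g005970.3.5C had the largest ratio between replicates at 37 °C and was the only member whose heated and unheated libraries overlapped. Its CPM in heated Chiifu was 376, 492 and 17.602, against 20.5, 45.3 and 16.3 at 22 °C. In gi it went from 60.1, 50.3 and 48.7 to 2427, 1102 and 934. BraA01g006570.3.5C came second, with 67.6, 126 and 9.76 CPM in heated Chiifu against 9.48, 7.33 and 5.84 at 22 °C, and an even 85.4, 80.2 and 73.3 in heated gi. For both genes the low value was that of Chiifu replicate 3 at 37 °C. In 1 more member, BraA01g012920.3.5C, heated Chiifu had 338, 389 and 59.7 CPM, and replicate 3 was again the low library. This gene was chosen after its values were seen.

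The limits were applied to both genotypes alike and set no limit on the difference between them, but they removed genes under the floor or with a small rise in either genotype. Within what they left, the comparison of gi with Chiifu asked whether the GIGANTEA edit went with a different base level or a different heated level. At 22 °C the members' levels were close in the 2 genotypes. The median log2 difference of gi from Chiifu was -0.00114 over members, against -0.02 over all genes, and 216 of the 224 members (96.4%) differed by less than 1 on the log2 scale, as did 96.8% of the genes past the floor and 82.7% of all genes. The 95% interval of the difference lay within 1 log2 unit of 0 for 155 members and reached beyond it for 69, so for those a 2-fold difference was within the interval. By edgeR's quasi-likelihood test 1 member was called higher in gi and 1 lower, each 0.446% of the members, where 0.451% of all genes were called higher and 0.562% lower. These shares are near the background. An unadjusted p under 0.05 was found for 19 members (8.48%), 6 higher and 13 lower in gi, against 15.1% of all genes. All 3 gi libraries lay above all 3 Chiifu libraries for 14 members (6.25%, against 9.76% of all genes), and below them for 24 (10.7%, against 10.7%).

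The member called higher at 22 °C, BraA04g008430.3.5C on chromosome A04, had 41.5, 59.1 and 51.0 CPM in Chiifu and 128.1, 111 and 102 in gi. All gi libraries lay above all Chiifu libraries, and the log2 difference was 1.17 (SE 0.23, edgeR adjusted p = 0.0407). At 37 °C the order was turned, with 1554, 1384 and 1327 CPM in Chiifu and 1205, 946 and 827 in gi, a log2 difference of -0.52 (SE 0.22) that was not called (edgeR adjusted p = 0.223). It thus rose 28.1-fold in Chiifu and 8.74-fold in gi. Its interaction p by edgeR was the smallest of all members (log2 -1.69, SE 0.32), yet not called either (edgeR adjusted p = 0.0969). DESeq2 called this interaction (log2 -1.65, DESeq2 adjusted p = 5.9e-06), as it did 1.79% of all genes.

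The member called lower at 22 °C, BraA05g034740.3.5C on chromosome A05, had 37.6, 35.5 and 39.4 CPM in Chiifu and 11.1, 12.1 and 13.8 in gi. The groups did not overlap, and the log2 difference was -1.60 (SE 0.32, edgeR adjusted p = 0.0431). At 37 °C it had 304, 240.3 and 646 CPM in Chiifu and 184, 209 and 209.9 in gi, all below Chiifu. The log2 difference of -0.98 (SE 0.31) was not called by edgeR (edgeR adjusted p = 0.112) but was by DESeq2 (DESeq2 adjusted p = 0.0287). Replicate number was also added as a block, on the assumption that libraries of the same number are pairs. With it, 0 members were called at 22 °C by edgeR over all 12 libraries or within each temperature. The 12 fits that left out 1 library called 0.284% to 2.46% of all genes at 22 °C, against 1.01% with all 12 libraries. Of these fits, 9 lost the call of each gene. It remained for BraA04g008430.3.5C only without Chiifu replicate 1 or gi replicate 3 at 22 °C or gi replicate 1 at 37 °C, and for BraA05g034740.3.5C only without Chiifu replicate 1 at 22 °C or Chiifu replicate 2 or 3 at 37 °C.

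After heat the members tended to be lower in gi than in Chiifu. The median log2 difference was -0.23 over members, against -0.02 over all genes and -0.10 over the 14037 genes past the floor, and 162 of the 224 members (72.3%) were lower in gi, against 51.7% of all genes and 60.8% of the genes past the floor. Scaling by total counts gave a median for the members of -0.08, with 136 lower (60.7%, against 38.0% of all genes and 42.1% of those past the floor), while the median of all genes moved to 0.16; relative to all genes, the members lay 0.20 lower with TMM and 0.24 lower with total counts. With TMM the 958 genes past the floor that rose 2-fold to 8-fold had a median of -0.12, with 61.7% lower in gi. The 614 genes that surged from below the floor had a median of -0.002, with 50.2% lower. The size of the members' difference rested on the uneven gi libraries. Without gi replicate 1 at 37 °C the median was -0.46 and 197 members were lower, and without replicate 3 it was -0.10 and 138 were lower. Each library of heated Chiifu lay above each library of heated gi for 34 members (15.2%), where 15.3% of all genes did so, and the reverse held for 9 members (4.02%), against 15.3% of all genes.

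By edgeR's quasi-likelihood test 3 members were called lower in gi at 37 °C (1.34%) and 0 higher, where 1.40% and 1.29% of all genes were called. An unadjusted p under 0.05 was found for 28 members lower and 4 higher (12.5% and 1.79%), against 10.9% and 9.46% of all genes. DESeq2 called 16 members lower and 2 higher, and 10.2% of all genes in either direction. The 95% interval lay within 1 log2 unit of 0 for 136 members and reached beyond it for 88.

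BraA03g026770.3.5C, on chromosome A03, had the smallest p. In heated Chiifu it had 1027, 869 and 887 CPM, and in heated gi 464, 327 and 304. Every gi library was below every Chiifu library, and the log2 difference was -1.35 (SE 0.23, edgeR adjusted p = 0.0140). At 22 °C the groups overlapped, with 15.1, 19.8 and 21.3 CPM in Chiifu and 24.3, 18.8 and 23.8 in gi. It rose 49.5-fold in Chiifu and 16.4-fold in gi, but the interaction was not called by edgeR (log2 -1.60, SE 0.32, edgeR adjusted p = 0.121). DESeq2 called the interaction (log2 -1.56, DESeq2 adjusted p = 0.000161).

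BraA09g051120.3.5C, on chromosome A09, had 307, 221 and 279.7 CPM in heated Chiifu and 132, 95.002 and 86.2 in heated gi, a log2 difference of -1.37 (SE 0.26, edgeR adjusted p = 0.0219) with no overlap. At 22 °C it was lower in gi too, with 9.21, 12.9 and 6.55 CPM against 5.64, 6.17 and 5.63, a difference that was not called (edgeR adjusted p = 0.234). The last of the 3, BraA03g021700.3.5C, had 177, 171 and 156 CPM in heated Chiifu and 121, 92.4 and 82.3 in heated gi (log2 -0.77, SE 0.17, edgeR adjusted p = 0.0411). Its call was kept with the replicate block within each temperature (edgeR adjusted p = 0.0443) and lost with the block over all 12 libraries (edgeR adjusted p = 0.0708). It was also lost with total counts, with no filter, in both fits of the heated groups alone and in 8 of the 12 fits without 1 library, and its edgeR and DESeq2 adjusted p ranged from 0.000704 to 0.164 over all alternatives. The calls of the first and second were lost in 3 and 4 of those 12. Chiifu replicate 1 and gi replicates 2 and 3 at 37 °C were each among the libraries whose removal ended all 3 calls, and without any 1 of them 0 members were called. In those fits 0.715% to 1.08% of all genes were called, against 2.70% with all libraries. Without Chiifu replicate 1 at 22 °C, 10 were called lower, where 6.78% of all genes were called in either direction. That library is outside this comparison and enters through the shared estimate of the spread, the filter and the TMM factors. Without gi replicate 1 at 37 °C, 5 were called lower, where 0.990% of all genes were called.

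In the other direction, BraA07g023650.3.5C on chromosome A07 came closest to a call at 37 °C. It had 340.2, 306 and 117 CPM in heated Chiifu and 812, 521 and 540.3 in heated gi, without overlap (log2 1.30, SE 0.35), and missed the threshold (edgeR adjusted p = 0.0746). It was called higher with total counts (edgeR adjusted p = 0.0423) and by DESeq2 (adjusted p = 0.00511), so the count of 0 members higher in gi depended on the scaling and the tool, and over its 20 alternatives the adjusted p ranged from 0.00511 to 0.182. It was also the member with the smallest interaction p among those with a larger rise in gi, 37.1-fold against 21.9-fold (log2 0.76, SE 0.49, edgeR adjusted p = 0.632).

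**Figure D5:**
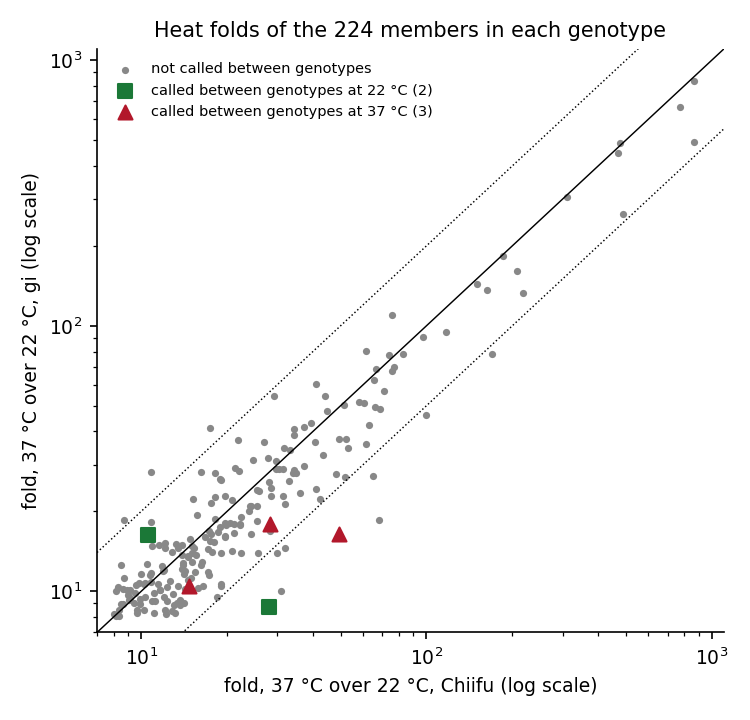
Fold at 37 °C over 22 °C in gi against that in Chiifu (both on a log scale) for the 224 members; the solid line marks equal folds and the dotted lines a 2-fold difference between genotypes. For 212 members the folds lay within 2 times of each other, and the members called between genotypes at 22 °C (green squares) or at 37 °C (red triangles) are marked.

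The heat by genotype interaction asked whether a member surged by a different factor in gi. By edgeR's quasi-likelihood test 0 members were called, where 0.0693% of all genes were called with a larger and 0.0485% with a smaller response in gi. The limits ask for an 8-fold rise in both genotypes, so genes that respond in 1 genotype alone were left out beforehand. An unadjusted p under 0.05 was found for 14 members, all with a smaller rise in gi (6.25%, against 5.33% of all genes), and for 0 members with a larger rise (4.88% of all genes). In either direction these 14 became 44 without gi replicate 1 at 37 °C, 6 without gi replicate 3 or Chiifu replicate 1 at 37 °C, 7 without gi replicate 2 at 37 °C, 8 without gi replicate 1 at 22 °C, 23 without Chiifu replicate 1 at 22 °C and 29 with the replicate block within each temperature. The share of all genes with such a p was not computed for these other fits. Their counts therefore show only that the number changed with the libraries and the model, not if it did so more than for all genes. DESeq2 called 3 members, all with a smaller rise in gi, and 1.79% of all genes in either direction. The 95% interval of the interaction lay within 1 log2 unit of 0 for 71 members and reached beyond it for 153, so for most of them a 2-fold difference in response was within the interval.

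The 2 genotypes' folds, both of which the limits held at 8 or more, were within 1.5 times of each other for 183 members and within 2 times for 212, and of the 12 that differed more, 9 rose more in Chiifu and 3 in gi. The interaction log2 was under 1 in size for 94.6% of the members, 93.7% of the genes past the floor and 79.5% of all genes. Across members, Pearson's r between the log2 folds was 0.94 and Spearman's rho 0.86 (n = 224; the 2 folds share no library, but the limits were set on both). With TMM 151 members had a smaller fold in gi, with a median interaction log2 of -0.16; with total counts the sign turned, to 76 members with a smaller fold and a median of 0.14, as the median of all genes moved from 0.01 to 0.34. Relative to all genes the members' median was 0.17 lower with TMM and 0.19 lower with total counts. The members' median with TMM, -0.16, became -0.40 without gi replicate 1 at 37 °C, -0.09 without replicate 2, -0.03 without replicate 3 and -0.07 without Chiifu replicate 1 at 37 °C. The genes past the floor had a median of -0.13 with TMM, near that of the members.

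Members were spread over the 10 chromosomes, from 16 on A08 to 38 on A03, which is 0.569% (A06) to 0.951% (A10) of the genes tested there. None was among the 108 tested genes that their IDs place on no chromosome. By consecutive IDs, 4 pairs of members were direct neighbours, and no run held more than 2. BraA02g013440.3.5C and BraA02g013450.3.5C had similar CPM at 22 °C (28.6 ± 6.81 and 19.4 ± 1.000 in Chiifu, SD, n = 3) but 13424 ± 982 and 277 ± 40.4 at 37 °C, so the first rose 469-fold and its neighbour 14.3-fold. In gi these rises were 449-fold and 11.9-fold. BraA03g012950.3.5C rose 15.1-fold in Chiifu and 12.8-fold in gi, and BraA03g012960.3.5C 31.7-fold and 34.6-fold. On A10, BraA10g019320.3.5C rose 19.0-fold and 13.9-fold, and BraA10g019330.3.5C 39.3-fold and 43.0-fold. BraA10g033160.3.5C rose 15.6-fold and 19.3-fold, and BraA10g033170.3.5C 33.2-fold and 34.1-fold. In each of the 4 pairs the same neighbour had the larger fold in both genotypes.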

How the data were processed

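Libraries were made from total RNA of whole plants with a strand-specific mRNA kit, per the labels' protocols. The authors deposited raw read counts per gene, 1 table per library; per the submitters' processing notes, which give no versions, the tools were FastQC, TopHat2, HTSeq and edgeR. The genome build, annotation release and strand setting are not given in the sources used here. Each table lists 47249 genes and 5 closing rows, kept out of library sizes and tests; 89.9% to 91.6% of the reads aligned were counted in genes, and the row for reads not aligned held 1.02 to 1.04 times the reads aligned. Pathway lists were not analysed, because 0 gene IDs matched the reference table.

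The tests used edgeR 4.0.16 under R 4.3.3: filterByExpr (minimum count 10, total 15), TMM, and 1 quasi-likelihood model (robust) with 4 group means over all 12 libraries. P-values were adjusted by Benjamini-Hochberg over all 28846 genes and called under 0.05. An SE is the size of the log2 difference over the square root of its F, and intervals are 95% intervals from it. The procedure was tested on simulated data. Replicates differed beyond sampling noise (chi-square per degree of freedom 14.9 to 353). Replicate numbers come from the labels. Deviations from group means of gi and Chiifu libraries with the same number correlated at 0.145 to 0.272 at 22 °C and 0.102 to 0.347 at 37 °C. All were over 0.1, so same-number libraries were taken as pairs within a temperature in alternative fits. The main model held no replicate block. Chiifu replicate 3 and gi replicate 2, of different numbers, also passed 0.1, with 0.131 at 22 °C and 0.205 at 37 °C. The threshold thus did not single out same-number libraries, and the pairing is an assumption. Between temperatures, correlations of same-number libraries fell to -0.272 and gave no pairing.

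Named members are those with the most CPM at either temperature, the largest folds, the smallest p each way per comparison, the largest replicate ratios, those beside the limits and direct neighbours by ID. The members, lists and rules were chosen with earlier results of these data known. Alternatives were other scalings, DESeq2 1.42.0, no filter, replicate blocks, fits of 2 groups, other limits and leaving out each library.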

Additional observations from a re-analysis of the deposited data

How the results depend on the processing

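Membership depended most on the limits and on the scaling. With total counts 143 genes met the rule, with a fold limit of 4 or 16 it was 458 or 109, and with a floor of 10 CPM 136; DESeq2 size factors, no filter, a floor of 2 CPM and folds from medians gave 214 to 329. Without single libraries the number was 199 to 238, and 175 members met the rule in all 12 of those fits. At 22 °C the 2 called members became 1 with no filter and 1 in a fit of the 2 groups alone, 0 with the replicate block over all 12 libraries, within each temperature and in the fit of 2 groups (chosen after seeing the data), 10 with DESeq2 (5.44% of all genes, against 1.01%), and 0 to 3 without single libraries (0.284% to 2.46% of all genes). At 37 °C the 3, all lower in gi, became 5 with total counts (3 lower and 2 higher, 2 of them among the 3), 18 with DESeq2 and 0 to 10 without single libraries, where 2.70% of all genes became 3.31%, 10.2% and 0.715% to 6.78%; with the replicate block they were 2 over all libraries and 4 within each temperature. With the replicate block, 1.88% of all genes were called at 37 °C over all libraries and 1.91% within each temperature. At 22 °C the block gave 0.534% and 0.340% of all genes. No filter gave 0.671% there, and the fit of the 2 groups alone 0.219%. Members called for the interaction stayed at 0 in every edgeR fit and were 3 with DESeq2. With counts in tested genes as the denominator, the members' shares of the counts moved by less than 1 SD; without single libraries they were 1.24% to 1.28% in Chiifu and 1.14% to 1.19% in gi at 22 °C, and 20.7% to 21.4% and 18.7% to 20.3% at 37 °C. For the 6 members named between genotypes, 46 alternative values lost a call, 5 gained one, 297 did neither and 0 changed sign; the cause was not tested. With 3 libraries a group, 2-fold differences are within the interval for many members, as given above.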

Other observations

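Some members tracked each other closely over all 12 libraries. BraA03g021700.3.5C and BraA09g066770.3.5C never differed by more than 1.15 times in any library. Unheated, BraA03g021700.3.5C had 9.93, 12.5 and 11.7 CPM in Chiifu and 8.69, 9.80 and 9.78 in gi, while its match had 9.07, 11.4 and 11.2 in Chiifu and 7.86, 11.3 and 11.2 in gi. BraA02g013380.3.5C and BraA02g013440.3.5C, which are 6 IDs apart on A02, rose 478-fold and 469-fold in Chiifu and 486-fold and 449-fold in gi and never differed by more than 1.26 times. Whether these are near-identical copies that share reads was not tested. These pairs were chosen after their values were seen.

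Replicate 1 at 22 °C departed for a few members in both genotypes at once. BraA10g015830.3.5C had 14.2, 198 and 130.0 CPM in Chiifu and 24.7, 129 and 164 in gi at 22 °C, so that replicate 1 was the low library in both, while at 37 °C it had 1287, 928 and 1106 in Chiifu and 1052, 897 and 751 in gi. BraA10g033410.3.5C had 17.78, 55.9 and 63.9 CPM in Chiifu and 17.2, 38.0 and 64.1 in gi at 22 °C. BraA05g015630.3.5C went the other way, with 18.21, 7.37 and 5.43 CPM in Chiifu and 20.01, 8.33 and 7.31 in gi. These are the 3 members for which a replicate lay more than 2 times outside the other 2 in both genotypes, all in replicate 1 at 22 °C, and 0 did so at 37 °C. Among the members with a departing Chiifu library at both temperatures were BraA09g000580.3.5C and BraA04g023030.3.5C, chosen after their values were seen. BraA09g000580.3.5C had 101, 72.8 and 10.01 CPM in Chiifu at 22 °C and 228, 1006 and 890.3 at 37 °C, against 60.6 to 77.9 and 949 to 1154 in gi, so that replicate 3 was low unheated and replicate 1 heated. BraA04g023030.3.5C had 27.2, 289.8 and 16.1 CPM in Chiifu at 22 °C and 336, 1742 and 826 at 37 °C, with replicate 2 high at both, against 16.7 to 19.5 and 254 to 466 in gi. What sets these libraries apart was not tested.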
